A study of Rattus norvegicus with 4 samples.

Results

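The genes described here are 40 cell cycle genes, chosen by name, of which 39 matched a row among the 28370 gene symbols of the deposited tables. Hmgb2, a chromatin protein, matched none and is not used here. Rows that shared a symbol were summed. The matched genes were split by role into 13 S genes, 25 G2/M genes and Stmn1, which is in neither list. The study profiled wild-type rats by droplet single-cell RNA sequencing of 3′ transcript ends, in 2 libraries of skin and 2 of subcutaneous fascia, the loose connective sheet under the skin, and its title places the fascia at the abdominal midline. Both tissues were digested with collagenase and elastase, red blood cells were lysed and dead cells were removed. The labels give no strain, sex or age and do not say that the libraries came from separate animals, so p-values measure the spread between libraries, which may be technical.

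Cells that prepare to divide first switch on genes for copying DNA. These S genes encode the Mcm helicase, the sliding clamp Pcna, the nucleotide enzymes Rrm1, Rrm2, Tyms and Tk1, and the E cyclins Ccne1 and Ccne2 that start the phase. Later they switch on genes for mitosis, among them the kinase Cdk1 with its cyclins Ccnb1, Ccnb2 and Ccna2, the spindle motors Kif11, Kif20a and Kif23, the checkpoint kinases Bub1 and Bub1b, and the chromosomal passenger proteins Aurkb, Birc5 and Cdca8. The epidermis and the growing hair follicle renew themselves through dividing basal and matrix keratinocytes, whereas fibroblasts, mural cells (the contractile cells around vessels) and endothelial cells of resting adult tissue rarely divide.

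The promoters of the 2 phases carry different letters, and the sequences of the 3 most abundant genes of each phase in skin keratinocytes that have an entry are shown for that reason. They come from RefSeq promoter windows of the build GRCr8, which may differ from the build of the deposited counts, and cover the 250 bases before the annotated start, 5′ to 3′ on the gene's strand. Capitals mark matches, on either strand, to the cell cycle homology region or CHR (TTTGAA or TTTAAA), to the CCAAT box (CCAAT), or to an E2F core (TTCCCGC or TTGGCGC, with TTCGCGC and TTGCCGC as variants). Capitals that run on are overlapping or adjoining matches. As background, CHR and CCAAT elements are known from mitotic promoters bound by the MuvB and NF-Y complexes, and E2F sites from S-phase promoters.
Prc1, G2/M, chr1:143659231-143659480, plus strand: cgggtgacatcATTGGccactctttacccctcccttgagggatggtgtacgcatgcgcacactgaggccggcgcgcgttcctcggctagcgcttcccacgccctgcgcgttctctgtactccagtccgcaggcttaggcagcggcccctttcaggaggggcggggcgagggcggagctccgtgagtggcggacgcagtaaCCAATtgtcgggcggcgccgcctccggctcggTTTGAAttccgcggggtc
Mki67, G2/M, chr1:199952594-199952843, minus strand: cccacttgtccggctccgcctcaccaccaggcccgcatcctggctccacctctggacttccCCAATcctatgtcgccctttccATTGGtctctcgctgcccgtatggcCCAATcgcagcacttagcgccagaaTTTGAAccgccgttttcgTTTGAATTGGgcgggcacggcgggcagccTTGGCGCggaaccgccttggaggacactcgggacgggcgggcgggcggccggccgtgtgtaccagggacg
Cenpf, G2/M, chr13:103760887-103761136, minus strand: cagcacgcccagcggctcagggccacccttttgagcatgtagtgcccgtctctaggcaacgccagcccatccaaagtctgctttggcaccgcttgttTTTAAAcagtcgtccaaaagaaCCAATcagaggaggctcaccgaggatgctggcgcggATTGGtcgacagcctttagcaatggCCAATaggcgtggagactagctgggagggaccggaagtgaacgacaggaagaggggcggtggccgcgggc
Pcna, S, chr3:139955821-139956070, minus strand: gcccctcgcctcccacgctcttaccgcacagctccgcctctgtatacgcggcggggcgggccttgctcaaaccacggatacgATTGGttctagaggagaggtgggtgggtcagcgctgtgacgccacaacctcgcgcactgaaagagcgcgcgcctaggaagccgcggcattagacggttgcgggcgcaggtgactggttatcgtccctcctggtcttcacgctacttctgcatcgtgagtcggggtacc
Rrm1, S, chr1:166235654-166235903, plus strand: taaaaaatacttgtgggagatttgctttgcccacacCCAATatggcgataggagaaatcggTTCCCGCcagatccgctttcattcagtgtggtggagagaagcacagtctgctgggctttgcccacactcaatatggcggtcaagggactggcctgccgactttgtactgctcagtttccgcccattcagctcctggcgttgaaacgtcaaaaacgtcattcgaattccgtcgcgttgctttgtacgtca
Mcm6, S, chr13:42404353-42404602, minus strand: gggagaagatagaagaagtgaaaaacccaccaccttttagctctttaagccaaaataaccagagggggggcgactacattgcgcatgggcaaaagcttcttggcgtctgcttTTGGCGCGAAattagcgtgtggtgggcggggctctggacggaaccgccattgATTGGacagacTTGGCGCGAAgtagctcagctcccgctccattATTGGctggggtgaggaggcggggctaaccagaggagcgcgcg
All 3 of the G2/M sequences hold a CHR match and none of the S sequences does.

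Over all members, 32 genes had an entry in the promoter table, with 33 windows of 300 bases (250 before and 50 after the start), because Cdkn3 has 2. A CHR match was present in 22 of 22 G2/M windows and in 2 of 10 S windows (Ccne1 and Mcm2), against 28.3% of all 33469 windows in the table. A CCAAT box was present in 19 of 22 G2/M windows, all but those of Aurka, Bub1 and Bub1b, in 6 of 10 S windows and in 37.5% of all windows. Both together were present in 19 of 22 G2/M windows, in 0 of 10 S windows and in 11.3% of all. The E2F core ran the other way, with 6 of 10 S windows, 4 of 22 G2/M windows and 9.52% of all windows. Tk1, which encodes thymidine kinase, held none of the 3 motifs in this window. Stmn1, which encodes a protein that destabilises microtubules, held a CCAAT box and an E2F core and no CHR match. Ube2c, Ccna2, Aurkb, Tpx2, Mcm4, Rrm2 and Ccne2 had no entry. A match describes the letters of the window and is not evidence of binding.

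**Figure D1:**
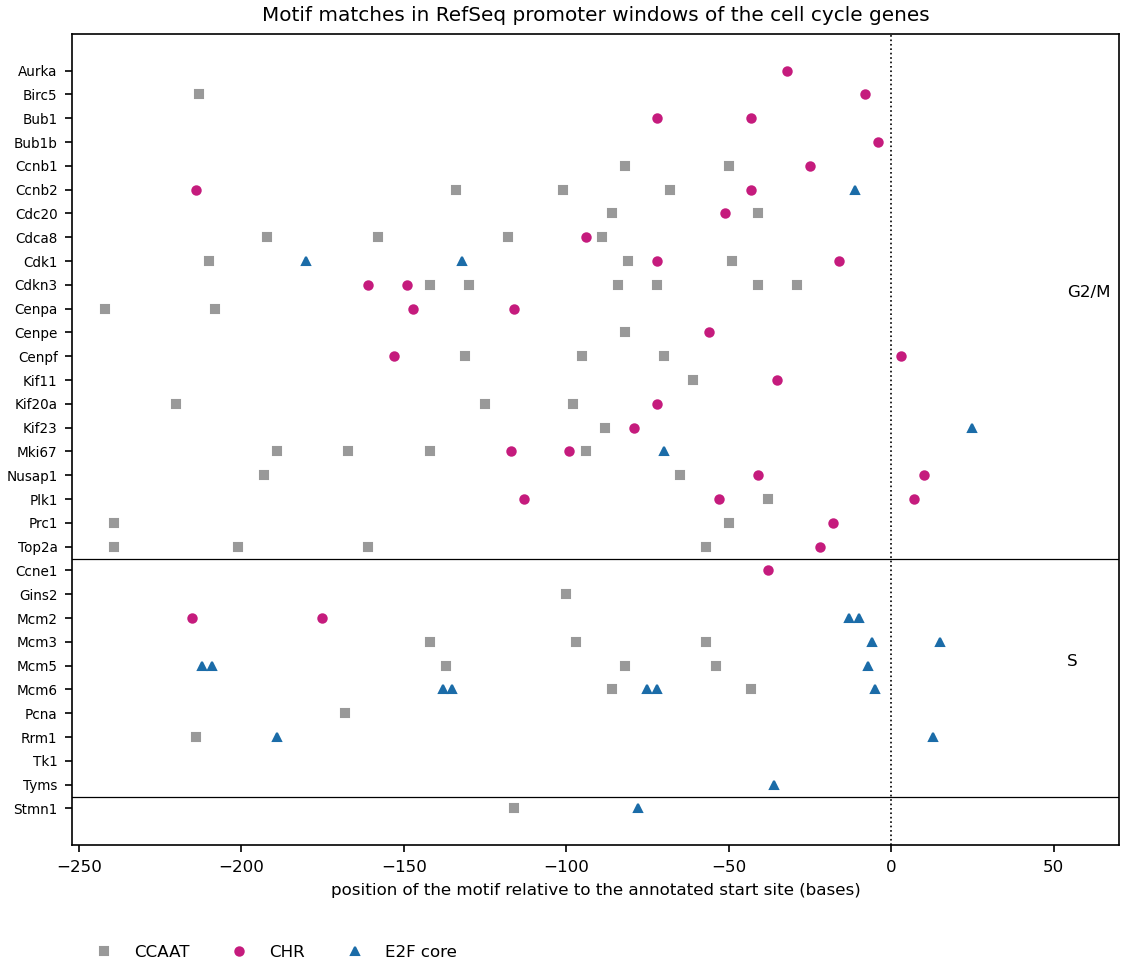
Positions of CHR, CCAAT and E2F core matches in the promoter windows of 32 cell cycle genes. The x axis is the distance from the annotated start site in bases, each row is a gene and each marker the first base of a match. CHR matches appear in every G2/M row and in 2 of the S rows.

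Cells were assigned to classes by marker genes, none of which is a member. The libraries had 7697 to 17527 barcodes and kept 6602 to 14279 cells after filtering. The median cell held 8859 UMIs (unique molecular identifiers, 1 per captured transcript) in the first skin library, only 2457 in the second, and 12680 and 10330 in fascia, and pairs of libraries shared 17 to 45 barcodes. Skin replicate 2 stood apart: 41.8% of its cells had under 2000 UMIs, and 18.6% carried markers of 2 lineages, against 1.58% to 8.02% in the other libraries. Keratinocyte markers summed to 370 to 1200 CPM (counts scaled to a total of 1e+06 UMIs) in its other classes and to 314 to 847 CPM in those of skin replicate 1, against 10.2 to 35.2 CPM in fascia. Results that rest on skin are therefore given per library. Only skin had keratinocytes, with 5711 and 10133 cells.

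Skin keratinocytes carried more mitotic transcripts than fascia stromal cells or pooled fascia immune cells, though not more than every immune class. The 25 G2/M genes summed to 398 and 988 CPM in the keratinocytes of the 2 skin libraries, to 46.2 and 91.3 CPM in fascia stromal cells (fibroblasts, mural cells and blood endothelial cells together) and to 210.25 and 280.5 CPM in fascia immune cells. The 13 S genes differed less, with 227 and 381 CPM in keratinocytes, 134 and 168 CPM in fascia stromal cells and 215 and 222 CPM in fascia immune cells. Both keratinocyte sums lay above both stromal and both pooled immune sums in each phase. Within the immune cells of fascia, T or NK cells alone had G2/M sums of 655 and 771 CPM, between those of the keratinocytes of the 2 skin libraries.

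In skin keratinocytes against fascia stromal cells, 32 of 39 members were higher and none lower in edgeR's quasi-likelihood test, where 21.4% of all 16899 genes tested were higher (adjusted p under 0.05 over all genes). By phase, 24 of 25 G2/M genes were higher, with a median log2 difference of 3.64, and 7 of 13 S genes, with a median of 1.18, against -0.001 for all genes. Cell type and tissue differ together in this comparison. Prc1, which bundles the microtubules of the central spindle, measured 91.4 and 131 CPM in keratinocytes and 3.38 and 9.31 CPM in fascia stromal cells, a log2 difference of 4.39 ± 0.55 (SE, edgeR adjusted p = 0.0078). Mki67, whose protein coats mitotic chromosomes, measured 36.2 and 97.6 CPM against 2.77 and 6.22 CPM (4.14 ± 0.65, edgeR adjusted p = 0.012). Cenpf, a kinetochore protein, measured 35.4 and 93.4 CPM against 2.04 and 4.84 CPM (4.47 ± 0.67, edgeR adjusted p = 0.011). In all 3 genes the lower keratinocyte library lay above the higher stromal library.

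The passenger complex genes Aurkb, Birc5 and Cdca8 were all higher, with edgeR adjusted p-values of 0.018, 0.019 and 0.014. So were Cdk1 and its cyclins Ccnb1, Ccnb2 and Ccna2, the kinetochore genes Cenpa and Cenpe, and both checkpoint kinases. Bub1 had the smallest difference of the G2/M genes that passed, 9.9 and 19.8 CPM against 5.58 and 5.01 CPM (log2 1.70 ± 0.40). Kif20a, a motor of cytokinesis, was the G2/M gene that did not pass, with 3.11 and 9.81 CPM in keratinocytes against 0.702 and 1.9 CPM (edgeR adjusted p = 0.051). Stmn1 measured 136 and 414 CPM in keratinocytes and 25.1 and 72.3 CPM in fascia stromal cells (log2 2.74 ± 0.73, edgeR adjusted p = 0.039).

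The S genes split. Pcna measured 118 and 142 CPM in keratinocytes against 59.2 and 75.7 CPM in fascia stromal cells (log2 1.18 ± 0.20, edgeR adjusted p = 0.014). Mcm4, a subunit of the replicative helicase, measured 17.2 and 28.1 CPM against 8.22 and 10.7 CPM (1.49 ± 0.30, edgeR adjusted p = 0.021). Rrm1, the large subunit of ribonucleotide reductase, measured 20.9 and 41.6 CPM against 18.4 and 19.5 CPM and did not pass (0.94 ± 0.35, edgeR adjusted p = 0.090). Its partner Rrm2, the small subunit, was among those that passed, with 11.0 and 30.3 CPM against 1.11 and 2.79 CPM. Mcm2, Mcm6, Tyms, Gins2 and Ccne2 did not pass. Tyms measured 8.64 and 18.6 CPM in keratinocytes and 14.3 and 15.6 CPM in fascia stromal cells, so those groups overlapped. The count of 32 dropped to 18 when skin replicate 2 or fascia replicate 2 was left out, and to 7 when fascia replicate 1 was.

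**Figure D2:**
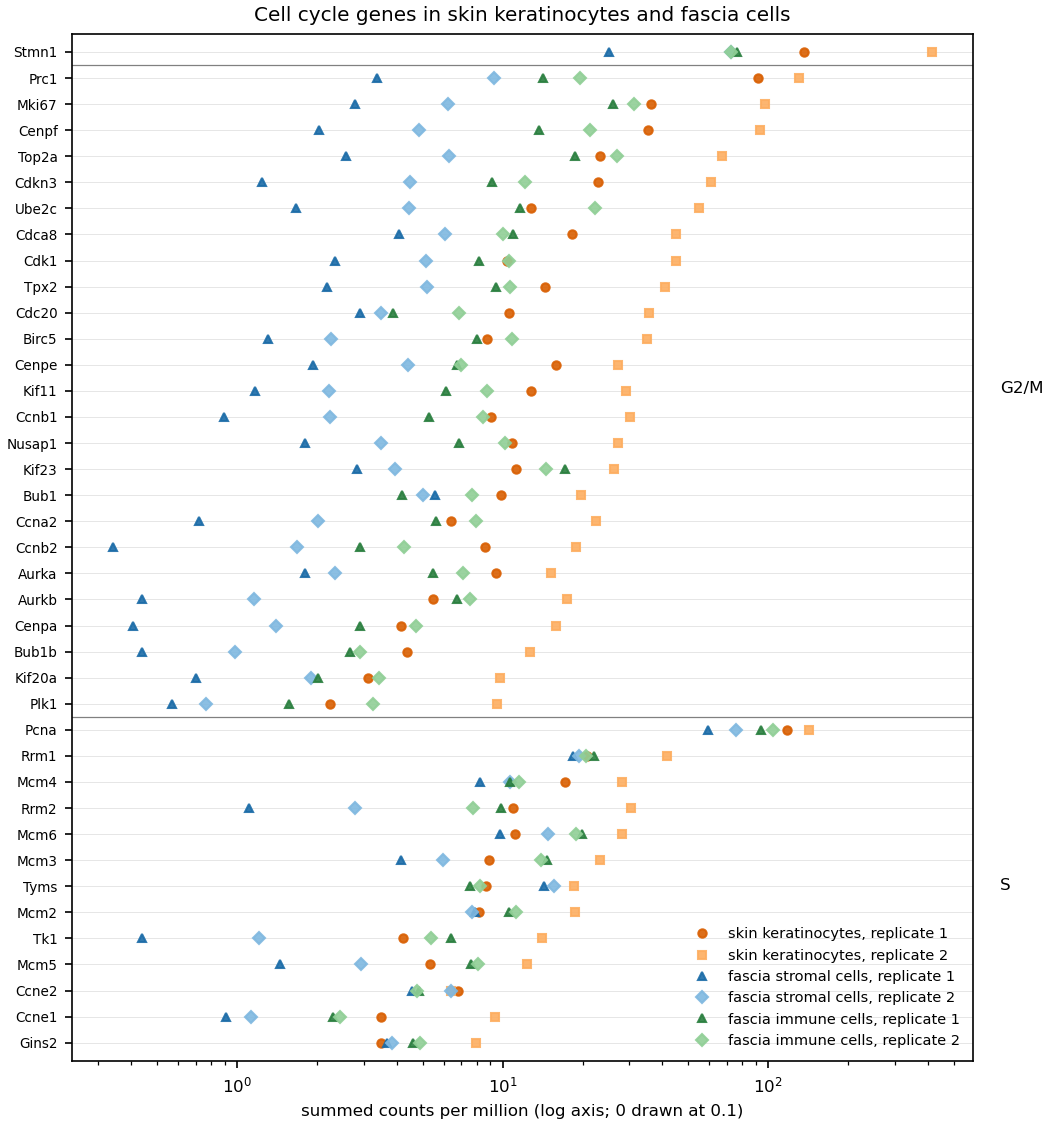
Level of each of the 39 cell cycle genes in skin keratinocytes, fascia stromal cells and fascia immune cells. The x axis is CPM from counts summed per library on a log axis, rows are genes grouped as S, G2/M and Stmn1, and each point is 1 library. For G2/M genes such as Prc1, keratinocytes lie to the right of the stromal points, while for S genes such as Rrm1 and Tyms the points lie close together.

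Against fascia immune cells the difference was smaller. There 10 of 39 members were higher and none lower, where 24.3% of all 16494 genes tested were higher, so the share of members was close to the background. Prc1 measured 14.2 and 19.7 CPM in fascia immune cells (keratinocytes higher by a log2 difference of 2.73 ± 0.27, edgeR adjusted p = 0.0015), and Cenpf 13.7 and 21.3 CPM (1.88 ± 0.50, edgeR adjusted p = 0.029). Stmn1 measured 76.2 and 72.2 CPM (1.89 ± 0.51, edgeR adjusted p = 0.032). Mki67, with 26.2 and 31.4 CPM, did not pass (1.22 ± 0.46, edgeR adjusted p = 0.081). The count of 10 was 31 without skin replicate 1 and 1 without either fascia replicate.

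Within skin, with the library as a block, keratinocytes exceeded the mean of fibroblasts, mural cells and endothelial cells in 26 of 34 members tested and were lower in none (19.0% of all 12428 genes tested were higher). Prc1 (log2 2.75 ± 0.44), Mki67 (2.23 ± 0.41) and Cenpf (2.77 ± 0.53) all passed, with edgeR adjusted p-values of 0.0023, 0.0041 and 0.0052. Against skin immune cells, 17 members were higher and 1 lower (18.1% and 18.2% of all genes), and the lower one was Pcna (log2 -0.83 ± 0.20, edgeR adjusted p = 0.014). Within fascia, immune cells exceeded stromal cells in 31 of 39 members and were lower in 1 (30.7% and 30.3% of all 15150 genes). Mki67 was higher in fascia immune cells by a log2 difference of 2.69 ± 0.56 (edgeR adjusted p = 0.0067), and the lower member was Tyms, thymidylate synthase (log2 -0.87 ± 0.14, edgeR adjusted p = 0.0023).

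Over all kept cells of each tissue, 18 of 39 members were lower in fascia than in skin and none higher (18.9% and 19.4% of all 17669 genes tested), a comparison that mixes cell makeup and expression. Prc1 was lower by a log2 difference of -3.37 ± 0.47 and Mki67 by -2.35 ± 0.56, with edgeR adjusted p-values of 0.0090 and 0.031. Leaving out skin replicate 2 or fascia replicate 1 brought this to 1, and leaving out fascia replicate 2 to 7.

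A cell was counted as cycling when its UMIs of the members summed to at least 5. Because that sum grows with depth, each cell was thinned to 2000 UMIs and shallower cells were left out, which kept 96.4% of keratinocytes in skin replicate 1 and 60.8% in skin replicate 2. Before thinning, 33.5% and 32.9% of keratinocytes passed, at median depths of 9184 and 2726 UMIs. After thinning, 5.16% of 5506 keratinocytes passed in skin replicate 1 (exact 95% binomial interval 4.59% to 5.78%) and 20.7% of 6164 in skin replicate 2 (19.6% to 21.7%), so the skin libraries differed from each other by far more than counting error. Intervals cover counting error only. In skin replicate 1 the passing keratinocytes were deeper than the others before thinning, with medians of 15882 and 9254.5 UMIs. In skin replicate 2 they were shallower, with medians of 4309 and 7375 UMIs. The part of depth in the difference between the libraries was not tested. With Stmn1 left out, 4.195% and 15.98% passed, and requiring a UMI of both Mki67 and Top2a gave 1.05% and 3.67%.

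Keratinocytes were divided by layer markers that include no member. The hair matrix, sheath and shaft cells, which build the hair, had the highest share in each skin library, 22.4% of 152 cells and 74.3% of 439 cells. Basal cells followed with 5.12% and 17.3%. Upper follicle cells had 1.79% and 5.13%, and suprabasal cells, which have left the basal layer, 0.278% and 10.0%. The order of hair and basal cells was the same in both libraries, while that of upper follicle and suprabasal cells was not. Mki67 and Stmn1 are part of the sum that sets this order, so their levels are no separate check of it. Mki67 followed this order, with 76.4 and 331 CPM in hair cells, 42.0 and 73.5 CPM in basal cells, and 1.88 and 23.8 CPM in suprabasal cells. Stmn1 measured 385 and 1391 CPM in hair cells, 150 and 308 CPM in basal cells and 16.6 and 158 CPM in suprabasal cells. The layers of 1 library share its free RNA and depth, and no test was made between them.

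Not every G2/M gene followed that order. Aurka, a spindle pole kinase, measured 26.9 and 23.3 CPM in upper follicle cells and 8.61 and 11.1 CPM in basal cells, and Cenpe, a kinetochore motor, 50.7 and 4.54 CPM in upper follicle cells and 13.7 and 21.5 CPM in basal cells. Prc1 measured 96.6 and 126 CPM in basal cells, 86.1 and 202 CPM in hair cells, 71.5 and 86.7 CPM in suprabasal cells and 76.8 and 75.8 CPM in upper follicle cells. Its suprabasal level lay below its basal level in both libraries, by a smaller ratio than that of Mki67. In thinned keratinocytes, 16.3% and 39.3% of Prc1 UMIs lay in cells where the other members summed to at least 5. The same share was 70.3% and 76.8% for Mki67, 76.3% and 80.0% for Top2a, which untangles DNA before mitosis, and 87.8% and 86.0% for Ube2c, which tags cyclins for destruction. For Prc1, cells of that kind made up 4.50% and 19.6% of keratinocytes. Pcna, at 10.8% and 30.8%, Mcm4, at 17.9% and 39.5%, and the mitotic kinase Aurka, at 9.78% and 61.7%, also lay largely outside such cells in skin replicate 1. In fascia T or NK cells the Prc1 share was 57.1% and 63.6%.

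Outside the keratinocytes shares reached at most 7.22% in the 5 classes tested below, with some of them above the 5.16% of keratinocytes in skin replicate 1. Of fascia T or NK cells, 6.42% of 265 (3.78% to 10.1%) and 4.36% of 597 (2.86% to 6.32%) passed, against 3.28% of 61 (0.4% to 11.3%) and 2.17% of 92 (0.264% to 7.63%) in skin. Blood endothelial cells had 0.565% and 1.32% in fascia and 1.5% and 7.22% in skin. Macrophages had 0.848% and 1.45% in fascia, and 0 of 88 and 0 of 38 in skin, whose exact intervals reach up to 4.11% and 9.25%. Mural cells had 0.205% and 0.623% in fascia and 1.32% and 0 of 247 in skin, the last with an exact interval up to 1.48%. Fibroblasts, a class that rarely divides in resting tissue, at median depths of 4759 to 16371 UMIs against 3724 to 8654 in T or NK cells, had 0.0737% and 0.416% in fascia and 0.409% and 1.41% in skin. These passing fibroblasts, 2 to 7 cells a library, held a median of 4.5 to 11 distinct members.

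The share of cycling cells was compared between tissues in 5 classes with edgeR on the numbers of cells, and no class passed after Benjamini-Hochberg adjustment over the 5, nor at an unadjusted p under 0.05. The log2 difference, fascia minus skin, was 0.99 ± 1.13 in T or NK cells (edgeR adjusted p = 0.50), -2.11 ± 1.01 in blood endothelial cells (0.22), -2.24 ± 1.19 in fibroblasts (0.22) and 0.31 ± 1.70 in mural cells (0.86). At a threshold of 3 UMIs, and with cells thinned to 4000 UMIs, the fibroblast share passed as lower in fascia (log2 -2.43 and -3.56, edgeR adjusted p = 0.038 and 0.0092).

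**Figure D3:**
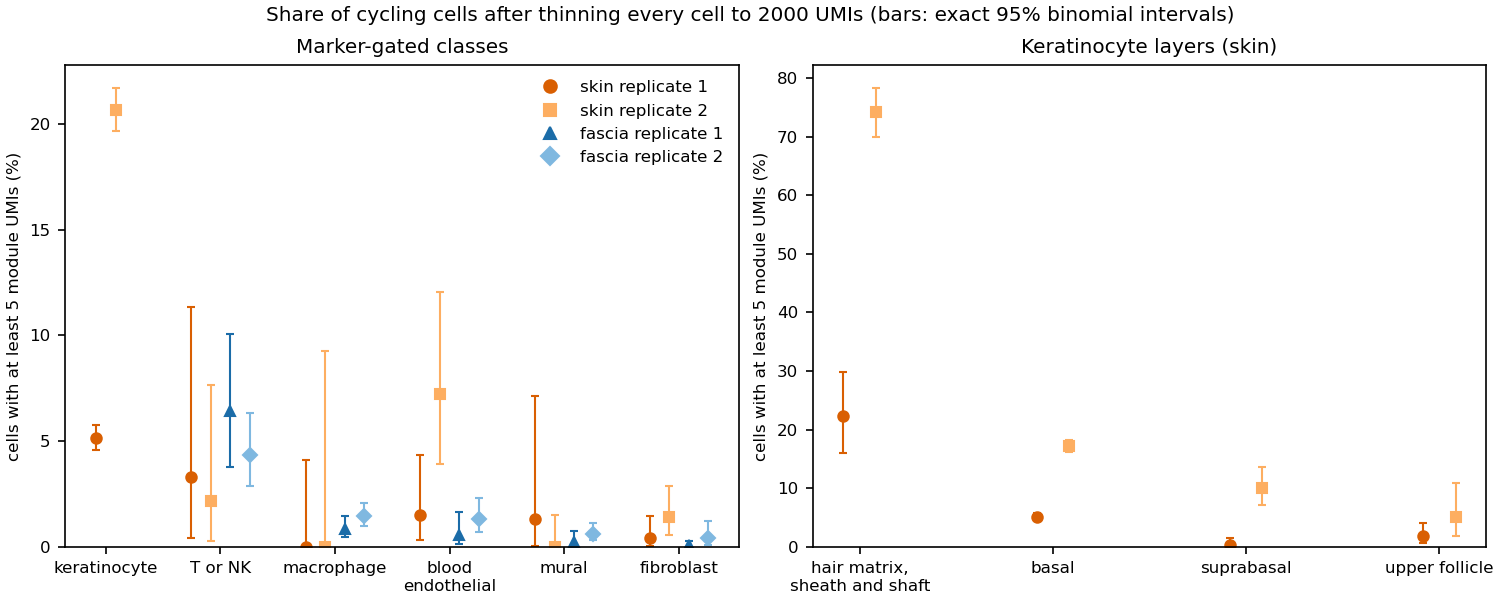
Share of cells with at least 5 UMIs of the 39 genes after thinning to 2000 UMIs, in percent, for marker-gated classes of both tissues (left) and keratinocyte layers of skin (right). Points are libraries and bars exact 95% binomial intervals. Keratinocytes stand at 20.7% in skin replicate 2, above the 5 classes found in both tissues, and at 5.16% in skin replicate 1, below T or NK cells of fascia replicate 1 (6.42%) and blood endothelial cells of skin replicate 2 (7.22%), and hair matrix, sheath and shaft cells are the highest layer in both skin libraries.

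Summed counts within the T or NK gate differed between the tissues more clearly. Of 36 members tested, 15 were higher in fascia and none lower, where 5.15% of all 9319 genes tested were higher and 8.71% lower. They were 13 of 23 G2/M genes, 1 of 12 S genes (Rrm2) and Stmn1. Some of them, such as Tpx2, Aurkb, Nusap1 and Ube2c, had almost no UMIs in skin. Those genes passed the low count filter only through fascia, where they are high. They could be called as higher in fascia or not at all, so their calls are weak support. The members' median log2 difference was 1.90, or 1.87 with genes that had no UMI in skin set to their bound, against 0.08 for all genes. Skin gave 329896 and 421600 UMIs in this gate and fascia 2517548 and 4746747.

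Mki67 measured 81.0 and 95.2 CPM in fascia T or NK cells and 6.06 and 7.12 CPM in skin, the latter from 2 and 3 UMIs (log2 3.61 ± 0.44, edgeR adjusted p = 0.0021). Top2a measured 70.3 and 71.6 CPM in fascia and 12.1 and 4.74 CPM in skin (3.03 ± 0.45, edgeR adjusted p = 0.0049). Stmn1, with more counts, measured 343 and 245 CPM in fascia and 100.0 and 97.2 CPM in skin, from 33 and 41 UMIs (1.47 ± 0.29, edgeR adjusted p = 0.016). In each of these genes both fascia libraries lay above both skin libraries. This is no separate support, since the genes had passed the test on the same values.

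Other mitotic genes were called on fewer counts. Nusap1, a spindle protein, measured 28.6 and 25.5 CPM in fascia and 0 and 2.37 CPM in skin. Birc5, of the passenger complex, measured 25.4 and 27.2 CPM in fascia and 3.03 and 2.37 CPM in skin, and Ube2c 36.1 and 62.4 CPM in fascia and 6.06 and 0 CPM in skin. Their edgeR adjusted p-values were 0.015, 0.016 and 0.018. Tpx2, which builds spindles and activates Aurka, had no UMI in skin and 25.4 and 32.0 CPM in fascia, at least 7.19-fold higher when skin is set to 3 counts over both libraries. Aurkb, also without a UMI in skin, was at least 4.41-fold higher. Kif23, a motor of cytokinesis, went the other way without passing, with 38.5 and 35.8 CPM in fascia and 66.7 and 61.7 CPM in skin, and 27.8% and 30.3% of its UMIs in fascia lay in cells where the other members reached 5.

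The gates were not alike in makeup. Cd3e, a T cell receptor subunit, measured 590 and 514 CPM in fascia and 1282 and 911 CPM in skin. The 7 dendritic markers, 6 of 7 detected in skin and 5 of 7 in fascia (Xcr1 at 0 in skin, Clec9a and Cd207 at 0 in fascia), summed to 135 and 87.6 CPM in fascia and to 1607 and 598 CPM in skin, and the 18 matched keratinocyte markers, 13 of 18 detected in skin and 9 of 18 in fascia, to 21.1 and 17.1 CPM and to 773 and 484 CPM. The 2 matched erythroid markers summed to 32.6 and 1946 CPM in fascia and to 6.06 and 2.37 CPM in skin. The part of these values in the result was not tested. Among cells with a UMI of Cd3d, Cd3e or Cd3g, Mki67 measured 64.1 and 95.6 CPM in fascia and 6.78 and 5.83 CPM in skin. The whole skin gate held 2 and 3 UMIs of Mki67. Stmn1 measured 240 and 184 CPM in these Cd3 cells of fascia and 108 and 117 CPM in skin. In cells without a Cd3 UMI it measured 685 and 476 CPM in fascia, from 60 and 119 cells. In skin it measured 28.6 and 12.7 CPM, but from only 8 and 18 cells, too few to set a level. After thinning, 4.88% and 3.95% of Cd3 cells passed as cycling in fascia and 3.70% and 2.60% in skin, with overlapping intervals. Without a Cd3 UMI, 11.7% of 60 and 6.03% of 116 passed in fascia, and 0 of 7 and 0 of 15 in skin. The exact intervals of these skin shares reach up to 41.0% and 21.8%, above both fascia shares. The count of 15 was 4 without either fascia replicate. The difference between the tissues was also compared between T or NK and stromal cells, by an interaction term, and there 7 of 39 members passed (5.82% of all 14869 genes), 0 without either skin replicate. Leaving out fascia replicate 1 gave 5 and leaving out fascia replicate 2 gave 12. The same test for macrophages passed 0 of 39 members in edgeR (4.71% of all genes), and 2 without fascia replicate 2.

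In blood endothelial cells the members ran the other way: 7 of 35 tested were lower in fascia and none higher (12.2% and 7.68% of all 11784 genes). Mcm4 measured 7.39 and 9.99 CPM in fascia and 28.6 and 31.8 CPM in skin (log2 -2.23 ± 0.28, edgeR adjusted p = 0.0053). Pcna measured 101 and 82.7 CPM in fascia and 139.96 and 172 CPM in skin (-1.22 ± 0.19, edgeR adjusted p = 0.0100). Mki67 measured 9.56 and 5.64 CPM against 16.4 and 30.5 CPM (-2.05 ± 0.37, edgeR adjusted p = 0.014), and Prc1 8.8 and 6.2 CPM against 13.5 and 31.8 CPM (-1.99 ± 0.39, edgeR adjusted p = 0.018). The tissues did not overlap in any of these 4 genes, which is no separate support because the genes were picked for passing the test.

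Cdkn3, Ccnb2 and Birc5 were the other 3 that passed, so the order of their libraries is likewise no separate support. In all 3, both skin libraries lay above both fascia libraries, and skin replicate 2 lay highest: Cdkn3, a phosphatase of Cdk kinases, measured 5.23 and 3.30 CPM in fascia against 6.96 and 25.3 CPM. Ube2c did not pass (edgeR adjusted p = 0.065), with 8.03 and 3.95 CPM in fascia against 5.73 and 51.9 CPM. The same library held 1259 CPM of lymphatic endothelial markers in this gate, against 109 CPM in skin replicate 1 and 24.5 and 11.7 CPM in fascia, and 1200 CPM of keratinocyte markers, against 314, 21.8 and 15.7 CPM. The part of these values was not tested. The count of 7 became 4 when skin replicate 2 or fascia replicate 2 was left out and 18 when skin replicate 1 was.

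Fibroblasts, mural cells and macrophages differed between the tissues in few members. In fibroblasts 3 of 35 were lower in fascia and none higher (13.5% and 8.27% of all 12926 genes): Pcna, Mcm4 and Ccne1. In mural cells 3 of 32 were lower and none higher (9.87% and 5.59% of all 12102 genes): Pcna, Mcm4 and Rrm1. In macrophages 1 of 38, Pcna, was lower and none higher (5.65% and 2.28% of all 12262 genes). These shares are below those of all genes. The members called were S genes, but in fibroblasts the median log2 difference was -1.63 for the 22 G2/M genes tested and -0.35 for the 12 S genes, and no G2/M gene passed.

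Pcna thus passed as lower in fascia in 4 of 5 classes. It measured 40.2 and 40.8 CPM in fascia fibroblasts against 70.3 and 103 CPM in skin (log2 -1.28 ± 0.18, edgeR adjusted p = 0.014), and 104 and 95.1 CPM in fascia mural cells against 146 and 149 CPM (-0.99 ± 0.20, edgeR adjusted p = 0.015). In macrophages it measured 84.1 and 102 CPM against 162 and 273 CPM (-1.41 ± 0.34, edgeR adjusted p = 0.036). The macrophage gates were not alike in makeup, and skin gave only 92 and 41 cells. Dendritic markers summed to 130 and 249 CPM in fascia and to 3247 and 1206 CPM in skin. Lymphatic endothelial markers summed to 1400 and 539 CPM in fascia and to 11.1 and 145 CPM in skin. The part of these values in the macrophage result was not tested. Rrm1 in mural cells measured 26.0 and 24.5 CPM in fascia and 37.7 and 47.5 CPM in skin (-1.23 ± 0.22, edgeR adjusted p = 0.0096). Mcm4 in mural cells measured 14.2 and 13.6 CPM in fascia and 27.2 and 24.5 CPM in skin (-1.29 ± 0.26, edgeR adjusted p = 0.015), and Ccne1 in fibroblasts 0.281 and 0.257 CPM in fascia and 1.87 and 4.14 CPM in skin (-3.57 ± 0.62, edgeR adjusted p = 0.021). The groups did not overlap in any of these, which were picked for passing the test, so this is no separate support. Leaving out 1 library gave 0 to 4 calls in fibroblasts, 0 to 3 in mural cells and 0 to 3 in macrophages, and without skin replicate 2 the 3 macrophage calls were all higher in fascia.

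**Figure D4:**
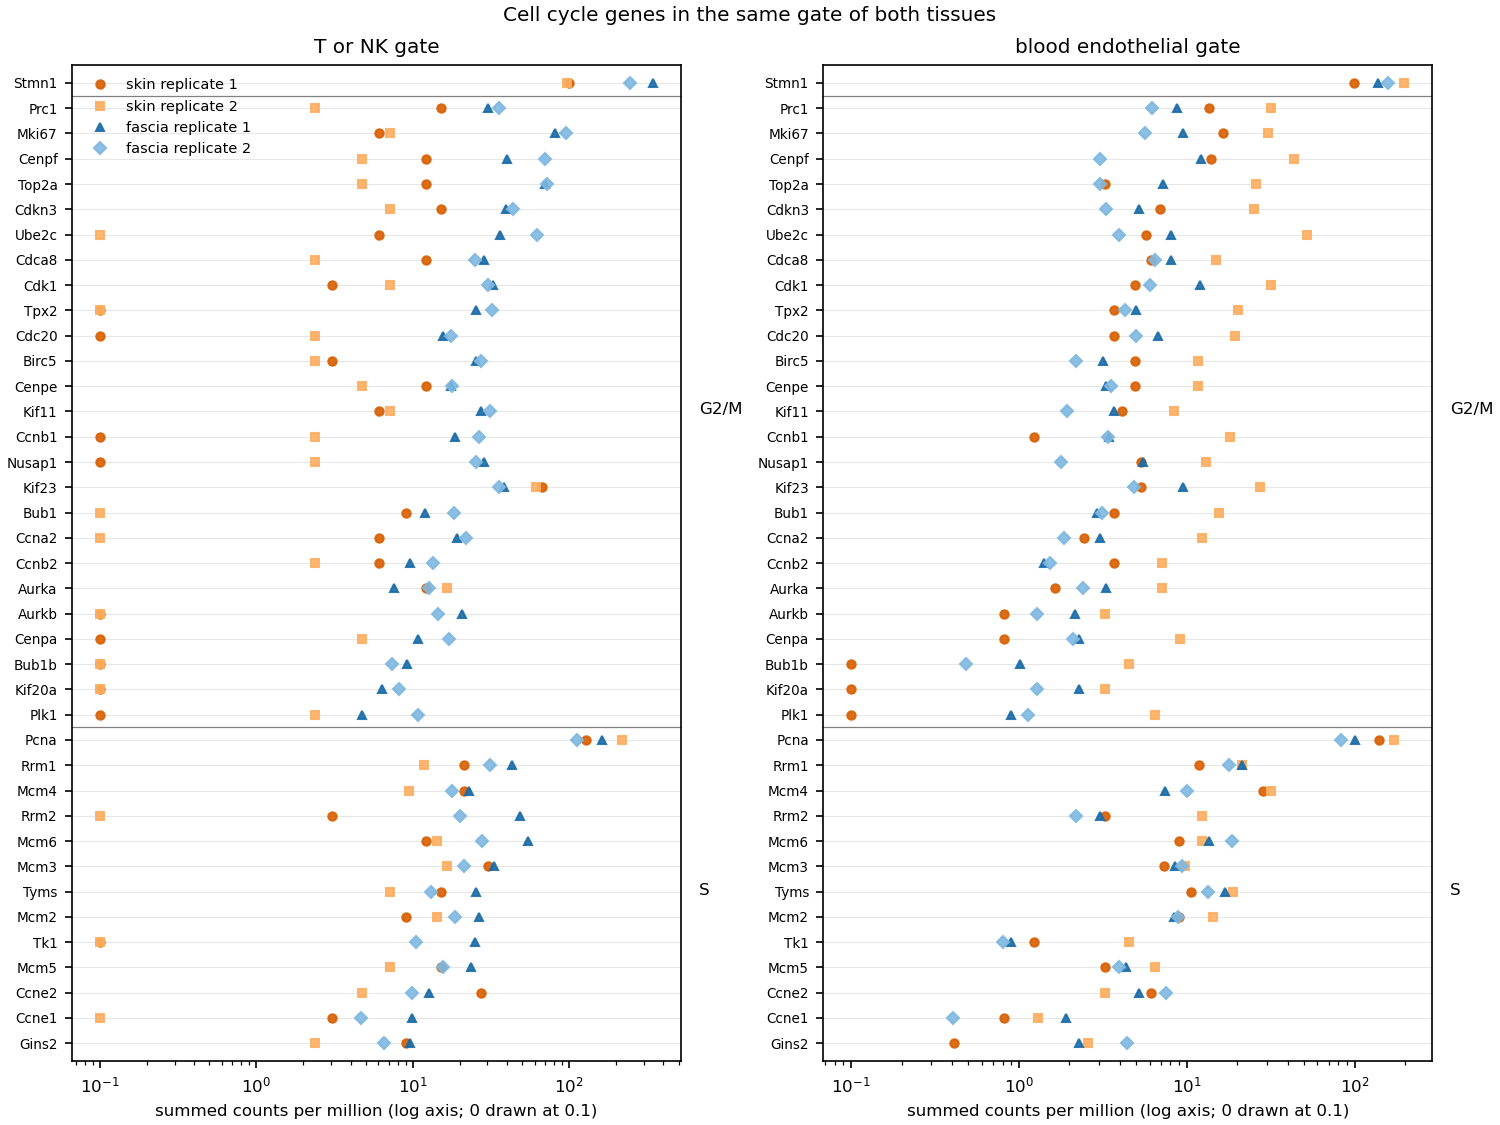
Level of each of the 39 cell cycle genes in T or NK cells (left) and blood endothelial cells (right). The x axis is CPM from summed counts on a log axis, with 0 drawn at 0.1, and each point is 1 library. For Mki67 and Top2a, T or NK cells of fascia lie to the right of those of skin. In blood endothelial cells skin replicate 2 is the highest library for all 25 G2/M genes.

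The balance of the phases was followed as the log2 ratio of summed S to summed G2/M UMIs. In keratinocytes it was -0.81 and -1.37, so UMIs of the longer G2/M list prevailed in both skin libraries. In T or NK cells it was 0.53 and 1.08 in skin and -0.40 and -1.32 in fascia, a difference of -1.67 with no overlap (exact two-sided permutation p = 0.33, the smallest that 2 against 2 libraries allow). In fibroblasts it was 1.19 and 0.11 in skin and 2.30 and 0.64 in fascia, in mural cells 0.69 and 2.07 against 1.30 and 0.80, and in blood endothelial cells 0.98 and -0.54 against 0.57 and 1.17. Those 3 classes overlapped between the tissues. Macrophages were left out because skin had 48 and 23 G2/M UMIs, under the minimum of 50. Without Pcna the T or NK ratio was -0.28 and -0.72 in skin and -0.97 and -1.97 in fascia, so the tissues still did not overlap, the gap was smaller and the skin ratios were below 0. Pcna alone supplied 37.3% to 51.8% of S UMIs in keratinocytes and 32.7% to 71.3% in T or NK cells.

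Phase was also counted per cell, as at least 3 thinned UMIs of a list. In keratinocytes 4.52% and 15.1% reached it for G2/M alone, 1.34% and 2.99% for S alone and 0.944% and 3.11% for both. In fascia T or NK cells 1.51% and 1.84% reached it for G2/M alone, 1.51% and 1.34% for S alone and 3.77% and 1.84% for both. Hair matrix, sheath and shaft cells had 16.4% and 39.9% for G2/M alone. The G2/M share exceeded the S share in both libraries for keratinocytes as a whole. The same cutoff was applied to both lists, and the G2/M list is longer, so it can be reached more easily. Prc1 alone measured 91.4 and 131 CPM in keratinocytes, of G2/M sums of 398 and 988 CPM, and the shares were not recounted without it. Whether more keratinocytes were in G2/M than in S therefore cannot be read from these shares.

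**Figure D5:**
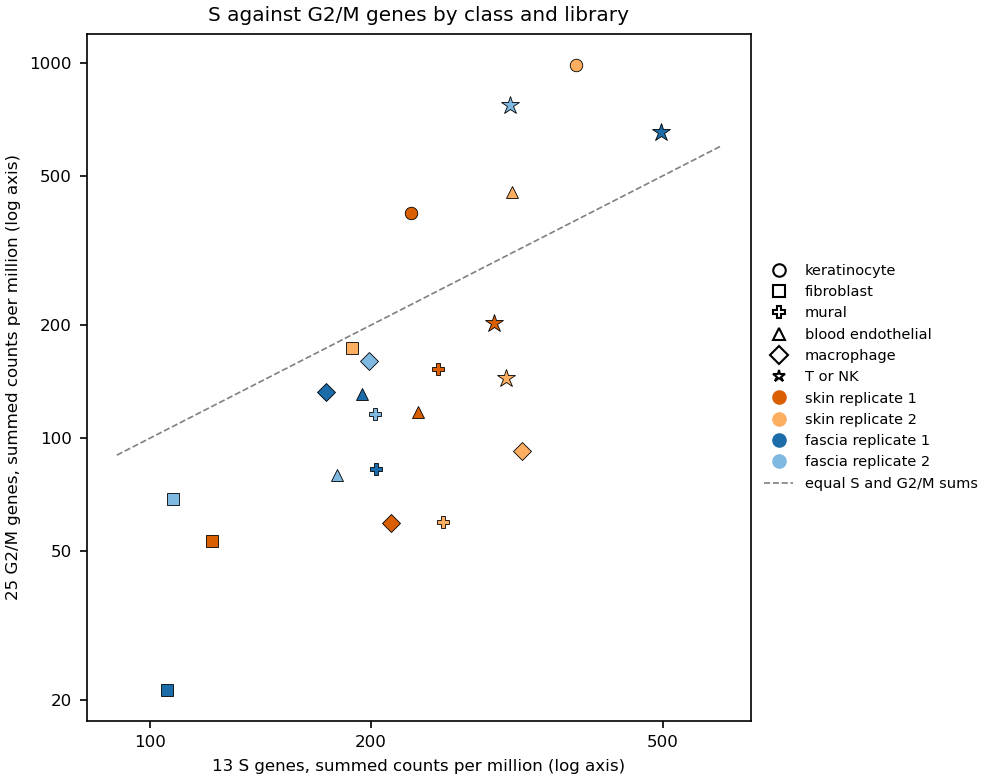
Summed S against summed G2/M genes by class and library, both in CPM on log axes. Marker shape gives the class, colour the library, and the dashed line marks equal sums. Keratinocytes of both skin libraries and T or NK cells of both fascia libraries lie above the line, and T or NK cells of skin below it.

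Cell cycle genes outside the members followed in part. In skin keratinocytes against fascia stromal cells, 35 of 42 kinetochore, spindle and chromosome genes and 19 of 30 replication genes were higher and none lower, where 21.4% of all genes were higher and 22.0% lower. Ect2, which drives cytokinesis, measured 8.78 and 23.6 CPM against 0.604 and 1.23 CPM (log2 4.38 ± 0.66), and the condensin subunit Ncapg 5.35 and 10.3 CPM against 0.343 and 0.667 CPM (4.20 ± 0.55). Uhrf1, which maintains DNA methylation at replication forks, differed by 4.31 ± 0.79 and the fork protein Clspn by 4.00 ± 0.67. Of 16 regulators of the E2F and FOXM1 groups, 8 were higher, among them Mybl2 (4.31 ± 0.85) and E2f7 (3.05 ± 0.70), and 1 lower, the pocket protein gene Rbl2 (-1.31 ± 0.20).

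Genes that restrain division moved both ways in this comparison, in small lists whose counts are to be read against the same 21.4% higher and 22.0% lower of all genes. Of 9 quiescence and antiproliferative genes, 5 were higher and 2 lower, with Tob1 at 271 and 290.3 CPM against 69.9 and 78.1 CPM (log2 2.16 ± 0.19) and Btg2 also higher (1.86 ± 0.29), and with Txnip (-2.08 ± 0.22) and Klf2 (-1.75 ± 0.29) lower. Of 7 kinase inhibitors 2 were higher and 1 lower. Cdkn1a, which encodes the inhibitor p21, measured 306 and 264 CPM in keratinocytes and 26.1 and 25.4 CPM in fascia stromal cells (3.70 ± 0.23, edgeR adjusted p = 0.0037), and Cdkn2b differed by 1.76 ± 0.50. Of 8 G1 cyclins and kinases 3 were higher, including Myc (1.75 ± 0.21) and Cdk6 (1.55 ± 0.23), and 1 lower, Ccnd3 (-1.87 ± 0.28).

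Cdkn1a was lower in fascia than in skin in all 5 classes tested. It measured 25.8 and 15 CPM in fascia T or NK cells against 164 and 94.9 CPM in skin (log2 -2.77 ± 0.37, edgeR adjusted p = 0.0031), and 40.2 and 19.6 CPM in fascia blood endothelial cells against 203 and 208 CPM (-3.26 ± 0.34, edgeR adjusted p = 0.0032). In mural cells it measured 74.0 and 34.2 CPM against 412 and 358 CPM (-3.25 ± 0.39), in fibroblasts 11.3 and 19.3 CPM against 118 and 103 CPM (-3.08 ± 0.33) and in macrophages 36.1 and 75.8 CPM against 340.1 and 301 CPM (-2.75 ± 0.43), with edgeR adjusted p-values of 0.0019, 0.0085 and 0.0060. The tissues did not overlap in any class, which is no separate support because Cdkn1a is given for passing the test. The gates of T or NK cells, blood endothelial cells and macrophages differed in makeup between the tissues, as given above.

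In T or NK cells, 7 of 33 kinetochore, spindle and chromosome genes and 3 of 24 replication genes were higher in fascia and none lower, where 5.15% of all genes were higher and 8.71% lower. Pttg1, which encodes securin, and Arhgap11a had no UMI in skin and were at least 6.04-fold and 4.67-fold higher in fascia. These 2 genes also passed the low count filter only through fascia. The G1 cyclin Ccnd3 (log2 1.79 ± 0.37) and its kinase partner Cdk4 (1.31 ± 0.32) were higher, with edgeR adjusted p-values of 0.018 and 0.033. Of 9 quiescence genes, 3 were lower, with the smallest p for Foxo1 (-1.68 ± 0.26, edgeR adjusted p = 0.0057), and 1 higher, Txnip (1.96 ± 0.32, edgeR adjusted p = 0.0077). In blood endothelial cells 9 of 32 kinetochore, spindle and chromosome genes were lower in fascia and none higher (12.2% and 7.68% of all genes), with the smallest p for the motor gene Kif18a at 4.08 and 3.14 CPM against 20.5 and 26.6 CPM (-3.15 ± 0.30, edgeR adjusted p = 0.0029).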

How the data were processed

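The deposited matrices hold whole-number UMI counts per gene and cell barcode for 2 skin and 2 fascia libraries. Per the submitters' processing notes, the authors used STAR and Cell Ranger 6.0.1 with mRatBN7.2, and the notes also list GRCh38.p13; the file headers name cellranger 7.0.0. The members and lists were chosen with earlier results of these data known. Cells needed 500 detected genes or more, with mitochondrial counts no higher than 20%. Doublets were called with Scrublet in Scanpy 1.11.5 for fascia; in skin its threshold failed, so the top scores, 0.8% per 1000 cells, were removed. Classes were gated on at least 3 detected markers, the score being the mean of the top 5 scaled markers; cells with another lineage above 0.67 of the best score were set apart as mixed. Counts were summed per library and class and tested with edgeR 4.0.16 (quasi-likelihood, TMM, filterByExpr, Benjamini-Hochberg at 0.05, R 4.3.3). CPM are from summed counts. The interaction test was added after the data were seen. limma 3.58.1, DESeq2 1.42.0 and other filters served as alternatives, and exact tests used SciPy 1.17.1. The main edgeR comparisons and the share test were checked on simulated counts, while the interaction and permutation tests were not. The share simulation had more cells than the smallest skin classes, a larger change than the main estimates and no spread between libraries. It therefore cannot show how the share test performs on these data. Named genes were all members, the 3 highest of each phase list in keratinocytes, and up to 4 called genes of each other list. Depth was 8859 and 2457 median UMIs in skin and 12680 and 10330 in fascia. Binomial intervals are exact at 95%, and a gene with no UMI in a tissue is given the limit of 3 counts.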

Additional observations from a re-analysis of the deposited data

Results flagged for a closer look

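The difference between fascia and skin was itself compared between T or NK cells and stromal cells, in an interaction test added after the data were seen. In edgeR 7 of 39 members passed, against 5.82% of all 14869 genes in either direction. The difference of log2 differences was 5.26 for Mki67, 4.97 for Ccnb1, 3.71 for Kif11, 2.65 for Stmn1, 1.80 for Mcm4 and 1.35 for Rrm1. Tpx2 also passed, with a fitted value of 11.30 that is no estimate of size because skin T or NK cells had no UMI of it. No member passed without skin replicate 1 or without skin replicate 2, 5 passed without fascia replicate 1 and 12 without fascia replicate 2. For macrophages against stromal cells no member passed, and 2 did without fascia replicate 2.

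Cells that entered no class also held cycling cells. After thinning, 5 UMIs of the members were reached by 0.926% of the mixed cells of skin replicate 1, 21.3% of those of skin replicate 2, 1.08% of those of fascia replicate 1 and 2.8% of those of fascia replicate 2. The 0.926% was 1 of 108 cells. Among cells with no class the same shares were 1.8%, 2.94%, 2.78% and 2.62%, from 2 of 111, 2 of 68, 1 of 36 and 5 of 191 cells. With Stmn1 left out, the share of cells with no class was 0 in skin replicate 2 and in fascia replicate 1.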

How the results depend on the processing

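Counts of members called moved with the settings as follows. With DESeq2 they were 32 for all cells, 6 for fibroblasts, 9 for T or NK cells and 20 for keratinocytes against fascia immune cells. With no filter on low counts they were 16 for fibroblasts, 6 for mural cells, 20 for blood endothelial cells, 4 for macrophages and 23 for T or NK cells. With at least 5 markers in the gate, keratinocytes against skin immune cells gave 11. Leaving out 1 library gave 1 to 21 for all cells, 0 to 4 for fibroblasts, 0 to 3 for mural cells, 4 to 18 for blood endothelial cells, 0 to 3 for macrophages, 4 to 18 for T or NK cells, 7 to 35 for keratinocytes against fascia stromal cells and 1 to 31 against fascia immune cells. The share of all genes called moved as well, from 0.82% to 61.8% over comparisons and settings. Counts given here and in the Results with a changed setting or a library left out are to be read against that range. The cause of these moves was not tested.

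Replicate numbers are shared by the tissues. The replicate differences over all cells correlated at r = -0.12 over 17669 genes. Those differences mix cell makeup, depth and expression, so the value cannot decide whether same-numbered libraries came from the same animal. The main comparisons between tissues used no replicate block. With the replicate block the count was 30 for all cells, 14 for fibroblasts, 4 for blood endothelial cells, 18 for T or NK cells, 33 for keratinocytes against fascia stromal cells and 15 against fascia immune cells. With the crossed block, chosen after seeing the data, it was 5, 19, 6, 21 and 7 for all cells, blood endothelial cells, T or NK cells, keratinocytes against fascia stromal cells and against fascia immune cells. Without the replicate block, keratinocytes against skin immune cells gave 10.

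The share of cycling cells was called in 1 class at 3 UMIs and in 1 at 4000 UMIs, and in 0 to 0 with 1 library left out. Its log2 difference turned in mural cells to -1.30 at 3 UMIs, -1.98 at 4000 UMIs, -0.12 without Stmn1, -0.51 with doublets kept, -0.63 in limma, and with 1 library left out it ran from -1.54 to 0.73, reversed without skin replicate 2 and at -0.76 without fascia replicate 2, with no usable value without skin replicate 1. It turned to -0.038 in T or NK cells at 3 UMIs and, without thinning, to 0.36 in blood endothelial cells and 0.22 in fibroblasts. The S to G2/M difference was -2.21 in T or NK cells when only cells with at least 5 UMIs were used. With 1 library left out it ran from -0.0095 to 1.65 in fibroblasts, -1.02 to 0.36 in mural cells, -0.11 to 1.42 in blood endothelial cells and -2.13 to -1.20 in T or NK cells. Too few dendritic cells (3 in a skin library) were present for a comparison between tissues, which was not run, nor was Hmgb2 as a G2/M gene. Shallow skin gates limit single genes: Mki67 in skin T or NK cells rests on 2 and 3 UMIs.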
